A study of Mus musculus with 6 samples.

Results

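Amino acid transporters of γδ T cells were followed through the genes of 7 solute carrier families, Slc1, Slc3, Slc6, Slc7, Slc36, Slc38 and Slc43. Members were taken by gene name from the scanner files, which gave 63 names with 83 probes among 30342 names on the array, and the probe with the highest mean signal stood for each gene. The 30 members whose probe was well above background on at least 3 of 6 arrays are described, and 16413 genes of the whole array met that condition and were tested. A name prefix also picks up genes of other function, so Slc7a6os, named for its place beside Slc7a6, is counted although its product is not a transporter.

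The cells were γδ T cells, sorted from the spleen of Eomes-IRES-GFP mice on a C57BL6 background, in which green fluorescent protein reports the T-box factor Eomes. Eomes-positive cells were GFP+, Eomes-negative cells were GFP-, and both were gated as CD3+ TCRγδ+ TCRβ- after depletion of B220+, CD4+ and CD8β+ cells. Both groups thus carried the reporter allele, and no treatment is recorded. Spleens of 4 to 6 mice were pooled in each of 3 independent sorts, and 1 Eomes-positive and 1 Eomes-negative array came from each sort. The mice were 9 weeks old in sort 1, 9.5 weeks in sort 2 and 7.5 weeks in sort 3, and the RNA input was 9 ng, 9 ng and 4 ng, so age, input and sort cannot be told apart. Both arrays of sort 3 were on a slide that held none of the other arrays, so slide cannot be told apart from sort 3 either. Levels come from one-colour Agilent arrays and are log2 signals after subtraction of the array's own 75th percentile, and differences are Eomes-positive minus Eomes-negative on that log2 scale. Signals of different probes are not compared with each other.

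Depending on the array, 47.7% to 56.6% of probes rose well above background, and the raw 75th percentile was 1581 to 1684 intensity units in sorts 1 and 2 against 534 and 549 in sort 3. Cd3e, a chain of the T cell receptor complex, had levels of 5.63, 5.48 and 6.04 in the Eomes-positive and 5.66, 5.62 and 6.08 in the Eomes-negative cells of sorts 1, 2 and 3. Eomes had levels of 5.31, 4.96 and 4.48 in Eomes-positive against 0.72, 0.88 and -1.14 in Eomes-negative cells, a difference of 4.76 (SE 0.59, limma adjusted p = 0.0178), so the sort labels and the transcript ran the same way. Of 12 tested markers of type 17 γδ cells, 10 were called lower in Eomes-positive cells, beside 1.57% of all tested genes. All 3 Eomes-negative arrays but 0 Eomes-positive ones were well above background for Il23r, Il1r1 and Kcnk1, and 1 Eomes-positive array was for Blk and Il17re. These 5 thus entered the test mainly through the Eomes-negative arrays. The linear signals summed over the list of 13 were 1.87 to 2.53 times the 75th percentile in Eomes-positive against 35.1 to 52.7 times in Eomes-negative cells, with 1 marker not well above background on any array. Apart from Eomes, on whose reporter the cells were sorted, 5 of 15 tested NK cell markers were called higher in Eomes-positive cells, beside 1.2% of all tested genes. Of 9 tested αβ T cell markers 1, Cd8b1, was called lower. In sorted bulk RNA, fewer cells of a type and less RNA per cell cannot be told apart.

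Lymphocytes take up most amino acids through carriers of a few solute carrier families. Sodium-coupled carriers of the Slc38 and Slc1 families concentrate glutamine and other small neutral amino acids in the cell, and heterodimers of the heavy chain CD98, encoded by Slc3a2, with a light chain of the Slc7 family exchange these for leucine and other large neutral amino acids. Antigen receptor and cytokine signals raise several of these carriers in activated T cells, while resting cells hold them lower, and lysosomal members of the Slc36 and Slc38 families report amino acid supply to the kinase complex mTORC1.

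Slc6a13 and Slc43a2 were lower in Eomes-positive than in Eomes-negative γδ T cells once the sorts were paired, and no other described carrier passed the test. In the comparison of the groups without pairing, 0 of the 30 described members were called higher and 0 lower at an adjusted p under 0.05 (limma, Benjamini-Hochberg over 16413 genes), while 2.77% of all tested genes were called, 1.2% higher and 1.57% lower. At an unadjusted p under 0.05 there were 5 members, against 12.2% of all genes. The arrays of a sort deviated together, and once the sort entered as a block, 0 members were called higher and 2 lower, Slc6a13 and Slc43a2, against 7.98% of all genes, 3.66% higher and 4.33% lower. The 30 differences had a median of -0.14, beside -0.01 for all tested genes. With calls this rare over the whole array, counts of 0 and 2 among 30 genes are near the background, and a gene that was not called is not thereby shown to be equal.

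Over the sorts, 4 members were higher in Eomes-positive cells in all 3, namely Slc7a1, Slc7a5, Slc38a1 and Slc38a6, and 10 were lower in all 3, while 25.3% and 27.1% of all genes were so placed. The groups did not overlap, with every Eomes-positive array below every Eomes-negative array, in 5 members, among them Slc6a13, Slc43a1, Slc36a3 and Slc7a4. In 0 members did every Eomes-positive array lie above. Among all genes 9.68% had groups apart with Eomes-positive cells lower and 8.53% with Eomes-positive cells higher. With 3 arrays a group, an exact permutation test of 1 gene cannot give a two-sided p below 0.1.

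**Figure D1:**
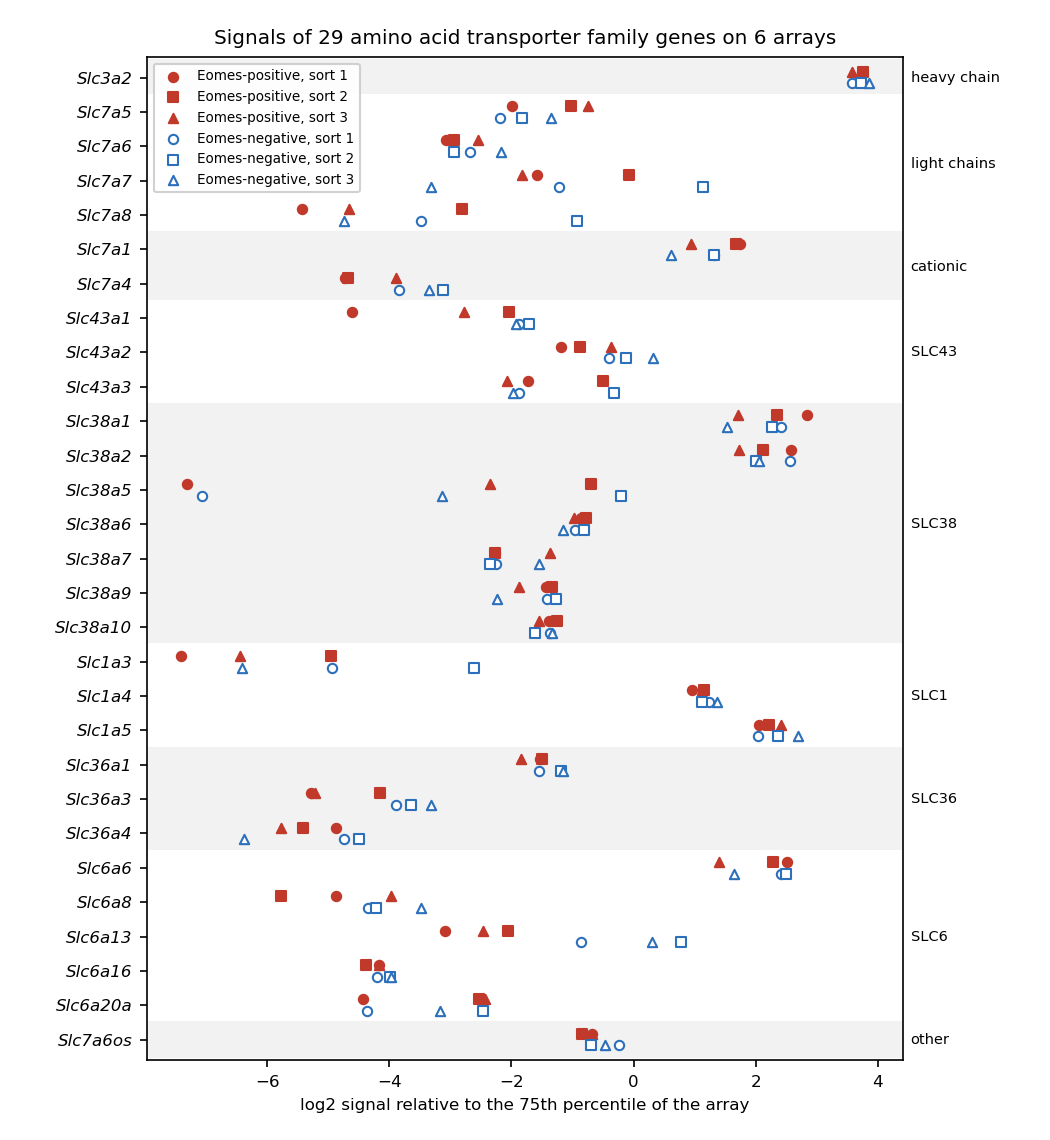
Levels, as log2 signal over each array's 75th percentile (horizontal axis), are plotted for 29 of the described genes (vertical axis, by family), with filled red symbols for the Eomes-positive and open blue symbols for the Eomes-negative array of each sort, and a symbol shape for each sort. In Slc6a13 the filled symbols, from -3.09 to -2.05, lie apart from the open ones, from -0.87 to 0.78, while for Slc3a2 all 6 symbols lie between 3.57 and 3.85.

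The member that differed most was Slc6a13, which encodes GAT2, a sodium- and chloride-coupled transporter of γ-aminobutyric acid (GABA) that also carries taurine. Its level was -3.09, -2.05 and -2.47 in the Eomes-positive cells of sorts 1, 2 and 3, against -0.87, 0.78 and 0.31 in the Eomes-negative cells. Every Eomes-positive array lay below every Eomes-negative array. The means of -2.54 ± 0.52 in Eomes-positive and 0.07 ± 0.85 in Eomes-negative cells (SD, n = 3 each) differed by -2.62 (SE 0.49, 95% interval -3.83 to -1.40), a 6.13-fold lower signal in Eomes-positive cells. This missed the threshold without pairing (limma adjusted p = 0.063) and passed it with the sort as a block (SE 0.16, limma adjusted p = 0.0076). Within the sorts the difference was -2.23, -2.84 and -2.78, and it was -3.05 on slide 1, the slide of Eomes-positive array 1 and of Eomes-negative arrays 1 and 2. The type 17 marker sum given above moved with Slc6a13 between the groups, and its part in the Slc6a13 result was not tested. The probe of Slc6a13 lies at chr6:121287597-121287656 in the mm9 build, and the nearest other member, Slc6a12, whose probe lies 27.9 kb away, was well above background on 1 array.

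Slc43a2 was the other member called with the sort as a block. It encodes LAT4, a sodium-independent carrier through which leucine, phenylalanine and methionine can pass along their gradients, and its probe lies at chr11:75387219-75387278 (mm9). Slc43a2 levels were -1.19, -0.88 and -0.38 in Eomes-positive against -0.39, -0.13 and 0.31 in Eomes-negative cells. The lowest Eomes-negative array lay just below the highest Eomes-positive one, and in each sort the Eomes-positive array was the lower of the pair. The difference was -0.80, -0.76 and -0.69 in sorts 1, 2 and 3. Their mean of -0.75 was lower in Eomes-positive cells with the sort as a block (SE 0.09, limma adjusted p = 0.023) and did not pass without it (SE 0.29, adjusted p = 0.37).

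The other carriers of large neutral amino acids in this family did not pass the test. Slc43a1, which encodes the similar carrier LAT3, had levels of -4.62, -2.04 and -2.78 in Eomes-positive against -1.88, -1.72 and -1.93 in Eomes-negative cells. The groups did not overlap, but the Eomes-positive arrays were spread far more widely than the Eomes-negative ones, with Eomes-positive array 1 the lowest. The difference of -1.30 (SE 0.65, limma adjusted p = 0.56) rested largely on that array and was -0.57 without it. Slc43a3, now known as a carrier of purine nucleobases, differed by -0.05, and its probe lies 94.3 kb from that of Slc43a1.

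**Figure D2:**
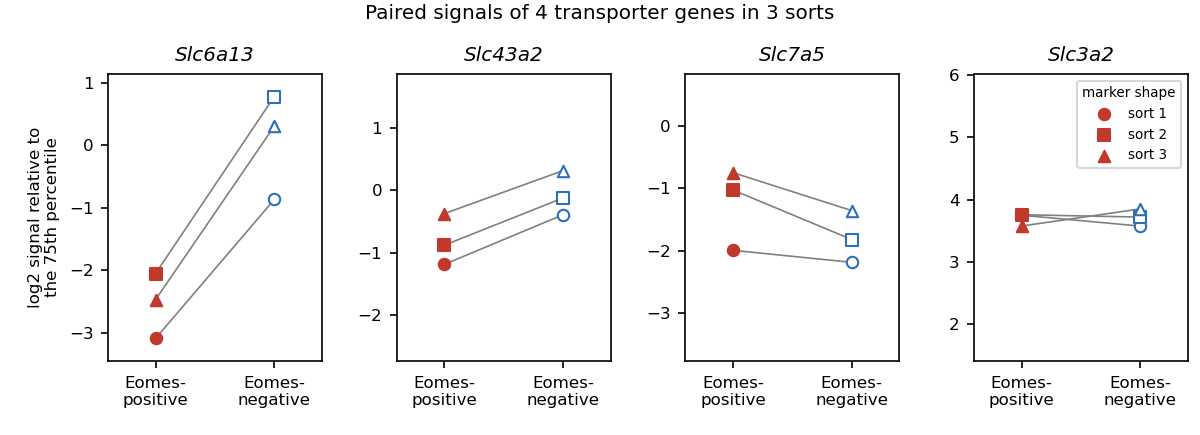
Levels, as log2 signal over each array's 75th percentile (vertical axis, the same span in each panel), are shown for Slc6a13, Slc43a2, Slc7a5 and Slc3a2 in Eomes-positive cells (filled, left) and Eomes-negative cells (open, right), with a line joining the arrays of each sort. The lines of Slc6a13 and Slc43a2 run upward to the Eomes-negative side in all 3 sorts, those of Slc7a5 downward, and those of Slc3a2 cross.

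The heavy chain of the CD98 heterodimers differed little between the groups. Slc3a2 had levels of 3.75, 3.76 and 3.58 in Eomes-positive and 3.57, 3.72 and 3.85 in Eomes-negative cells. All Eomes-positive values lay within the range of the Eomes-negative ones. The difference was -0.02, with a 95% interval of -0.38 to 0.34 (SE 0.15, limma adjusted p = 0.99). The other heavy chain gene, Slc3a1, was not well above background on any array.

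Of 10 light chain genes 4 were described, and none of these 4 passed the test in either fit. Slc7a5 encodes LAT1, the leucine exchanger that activated T cells induce, and it had levels of -1.99, -1.03 and -0.75 in Eomes-positive against -2.19, -1.82 and -1.36 in Eomes-negative cells. The Eomes-positive array was the higher in each sort, but the groups overlapped, because both arrays of sort 1 were low. The difference was 0.53 (SE 0.39, limma adjusted p = 0.77, and 0.13 with the block). The other Slc7a5 probe, also well above background on all 6 arrays, gave a difference of -0.23, so the 2 probes ran in opposite directions.

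Slc7a6, which encodes y+LAT2, an exchanger of cationic for neutral amino acids, had levels of -3.07, -2.94 and -2.54 in Eomes-positive and -2.68, -2.94 and -2.18 in Eomes-negative cells. The sort 2 arrays were equal at this precision and the groups overlapped. The difference was -0.25 (SE 0.26, limma adjusted p = 0.90). Slc7a6os, the neighbour that is no transporter, was at -0.68, -0.85 and -0.67 in Eomes-positive and -0.23, -0.69 and -0.46 in Eomes-negative cells. It was lower in Eomes-positive cells in each sort with overlapping groups, a difference of -0.27 (SE 0.17, limma adjusted p = 0.70). Slc7a7 and Slc7a8, whose sort means spanned 3.11 and 2.83, are described with the sorts. Slc7a11, the light chain of the cystine transporter xCT, and the light chain genes Slc7a9, Slc7a10, Slc7a12, Slc7a13 and Slc7a15 were not well above background on any array.

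Among the cationic amino acid transporters, Slc7a1 encodes CAT-1, the main carrier of arginine and lysine in many cells. Slc7a1 levels were 1.75, 1.67 and 0.94 in Eomes-positive and 1.32, 1.32 and 0.61 in Eomes-negative cells. The Eomes-positive array was the higher in each sort, while the low signals of sort 3 made the groups overlap. The difference was 0.37 (SE 0.31, limma adjusted p = 0.84, and 0.092 with the block). Slc7a4, a relative for which carrier activity is not established, had dim signals of -4.73, -4.68 and -3.89 in Eomes-positive against -3.84, -3.12 and -3.36 in Eomes-negative cells. Its groups lay apart by a small margin, and the difference of -0.99 (SE 0.31) did not pass in either fit (limma adjusted p = 0.25, and 0.086 with the block). The other Slc7a4 probe was not well above background on any array. Of the remaining cationic genes, Slc7a3 and Slc7a14 were not well above background on any array and Slc7a2 was on 1.

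The sodium-coupled neutral amino acid transporters were the family with the most members measured, 7 of 11 names. Slc38a1 encodes SNAT1, a glutamine importer, and its levels were 2.83, 2.35 and 1.71 in Eomes-positive and 2.41, 2.27 and 1.53 in Eomes-negative cells. In each sort the Eomes-positive array was slightly higher, and sort 3 was the lowest in both groups. The difference was 0.23 (SE 0.37, limma adjusted p = 0.97, and with the block SE 0.11, adjusted p = 0.29), and the other Slc38a1 probes gave 0.07 and 0.36. Slc38a2 encodes SNAT2, the carrier that cells induce when amino acids run short, and it had levels of 2.58, 2.13 and 1.73 in Eomes-positive and 2.57, 2.0 and 2.06 in Eomes-negative cells. The sorts disagreed in direction and the difference was -0.06, with a 95% interval of -0.75 to 0.63 (SE 0.28, limma adjusted p = 0.99, and with the block SE 0.13, adjusted p = 0.78).

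Slc38a9, the lysosomal carrier that senses arginine for mTORC1, had levels of -1.44, -1.33 and -1.88 in Eomes-positive and -1.42, -1.27 and -2.23 in Eomes-negative cells. Only the sort 3 pair stood apart, and the difference was 0.09 (SE 0.31, limma adjusted p = 0.99). Of the other Slc38a9 probes, that measured on 6 arrays gave -0.12 and that measured on 5 gave 0.47, with 0.51, 0.42 and 0.49 in the sorts, so the probes disagreed. Slc38a6, a less studied member, was at -0.87, -0.79 and -0.97 in Eomes-positive and -0.96, -0.82 and -1.16 in Eomes-negative cells. The pairs differed by small amounts in 1 direction, with a mean of 0.11 (SE 0.15, limma adjusted p = 0.95), while the other Slc38a6 probe gave -0.34. Slc38a7, a lysosomal glutamine exporter, and Slc38a10 differed by 0.08 and 0.04 with both directions among their sorts. Slc38a3, Slc38a4, Slc38a8 and Slc38a11 were not well above background on any array.

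In the Slc1 family the neutral amino acid exchangers had near equal levels in the groups. Slc1a5 encodes ASCT2, the glutamine exchanger, and had levels of 2.05, 2.22 and 2.42 in Eomes-positive and 2.03, 2.37 and 2.69 in Eomes-negative cells. Sort 3 was the highest in both groups and the groups overlapped. The difference was -0.13 (SE 0.22, 95% interval -0.67 to 0.40, limma adjusted p = 0.96, and with the block SE 0.10, adjusted p = 0.46). The other Slc1a5 probe gave -0.22. Slc1a4, which encodes the serine and alanine exchanger ASCT1, was at 0.95, 1.16 and 1.13 in Eomes-positive and 1.23, 1.12 and 1.37 in Eomes-negative cells. Sorts 1 and 3 were lower in Eomes-positive cells and sort 2 was not, for a difference of -0.16 (SE 0.14, limma adjusted p = 0.86). Slc1a3, a glutamate carrier of glia and some macrophages, is described with the sorts. The glutamate carrier genes Slc1a1 and Slc1a6 were not well above background on any array, and Slc1a2 and Slc1a7 each were on 1 Eomes-negative array.

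Proton-coupled carriers of the Slc36 family were 3 of 4 described. Slc36a1 encodes PAT1, which exports small neutral amino acids from lysosomes, and its levels were -1.54, -1.50 and -1.85 in Eomes-positive and -1.55, -1.19 and -1.15 in Eomes-negative cells. The pair of sort 1 was nearly equal and those of sorts 2 and 3 were lower in Eomes-positive cells, a difference of -0.34 (SE 0.18, limma adjusted p = 0.63). Slc36a3, a less studied relative, had levels of -5.28, -4.15 and -5.22 in Eomes-positive against -3.88, -3.65 and -3.32 in Eomes-negative cells. Its probe passed the background mark on 1 Eomes-positive and 3 Eomes-negative arrays, and the groups lay apart. The difference of -1.27 (SE 0.36) did not pass in either fit (limma adjusted p = 0.19, and 0.091 with the block), and the other Slc36a3 probe was not well above background on any array. Slc36a4, measured on 1 Eomes-positive and 2 Eomes-negative arrays, differed by -0.15.

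The Slc6 family carries neurotransmitters, creatine, taurine and some amino acids, and 6 of its 20 names were described. Slc6a6, which encodes the taurine carrier, was at 2.52, 2.28 and 1.39 in Eomes-positive and 2.41, 2.50 and 1.64 in Eomes-negative cells. Its groups overlapped, with sort 3 low in both, and differed by -0.12 (SE 0.38, limma adjusted p = 0.99, and with the block SE 0.12, adjusted p = 0.56).

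Slc6a8, the creatine carrier gene, had levels of -4.87, -5.78 and -3.97 in Eomes-positive and -4.36, -4.22 and -3.48 in Eomes-negative cells. It was lower in Eomes-positive cells in each sort, the most in sort 2, and the difference was -0.85 (SE 0.50, limma adjusted p = 0.67, and 0.14 with the block). The Slc6a8 probe was well above background on 2 Eomes-positive and 3 Eomes-negative arrays. Slc6a16, whose substrate is not established, and Slc6a20a, a proline carrier gene, differed by -0.19 and 0.21 with both directions among their sorts. Of the other Slc6 names, 11 were not well above background on any array.

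**Figure D3:**
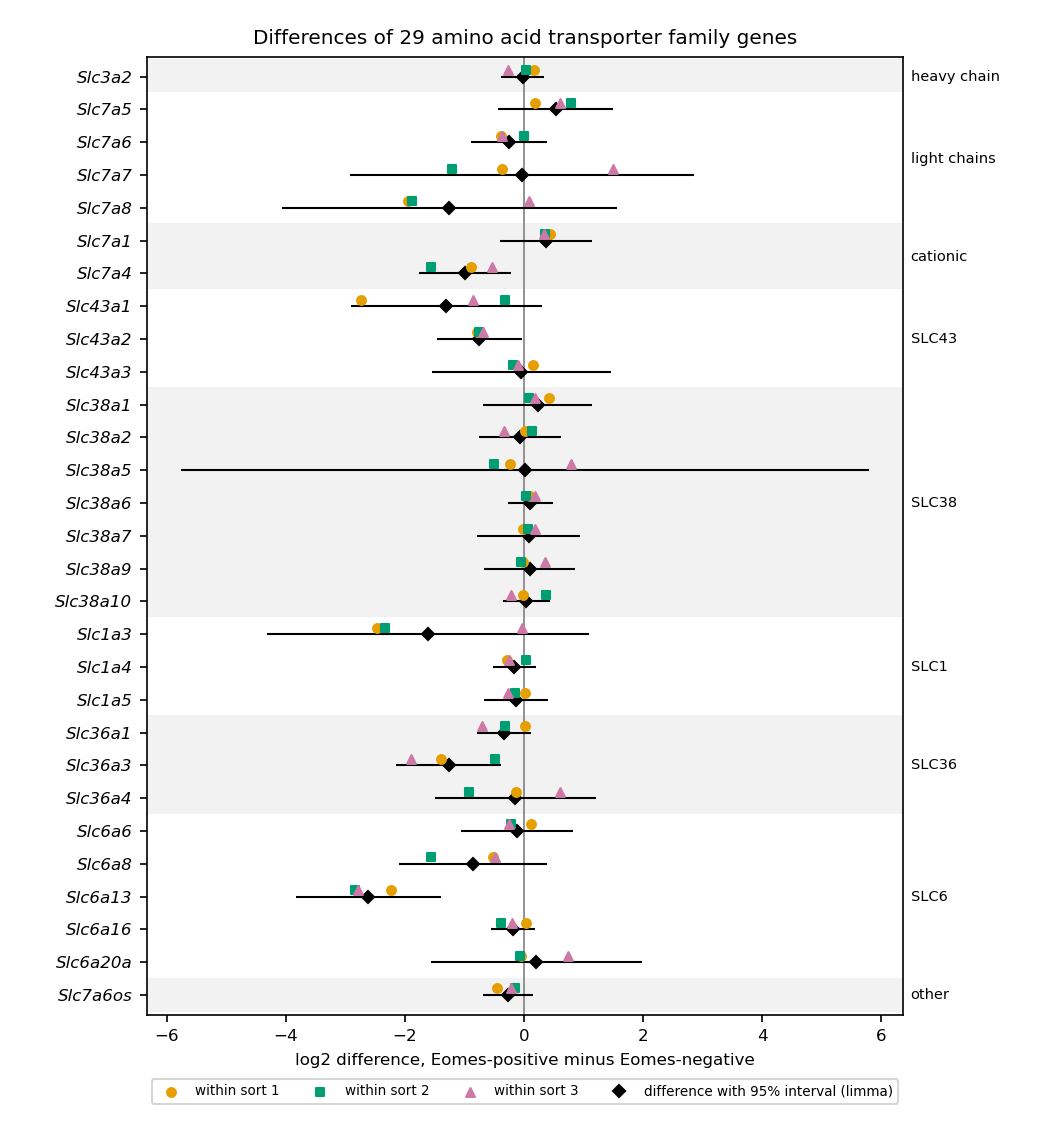
The log2 difference, Eomes-positive minus Eomes-negative (horizontal axis), is plotted for 29 of the described genes by family, as a diamond with its 95% interval from the comparison without pairing and as 1 coloured symbol for each sort. The interval of Slc6a13, -3.83 to -1.40, lies furthest from 0, and the 3 symbols of Slc43a2 lie between -0.80 and -0.69 while its interval reaches -0.04.

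Several carriers also differed between the sorts. In the fit with both terms, a test of the sort term that was chosen after the values were seen called 10 of the 30 members, against 22.8% of all genes (limma adjusted p under 0.05). These were Slc38a5, Slc6a20a, Slc43a3, Slc6a13, Slc7a5, Slc38a1, Slc6a6, Slc38a7, Slc43a2 and Slc7a1, whose sort means spanned from 0.76 in Slc7a1 to 6.75 in Slc38a5. Slc7a1, Slc38a1 and Slc6a6 were lowest in sort 3, while Slc38a7, Slc43a2 and Slc7a5 were highest there. That sort had the youngest mice, the smallest RNA input and a slide of its own.

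Slc38a5 encodes SNAT5, a glutamine and glycine carrier that red cell precursors also use. Its level was -7.32, -0.70 and -2.35 in Eomes-positive and -7.07, -0.20 and -3.15 in Eomes-negative cells of sorts 1, 2 and 3. Both arrays of sort 1 were at background and both of sort 2 were far above it, while the groups differed by 0.02, with a 95% interval of -5.76 to 5.79. The sort term had a limma adjusted p of 0.0068. Linear signals summed over the red cell and platelet markers, of which 12 of 16 were tested and 0 called in either fit, were 76.7, 515 and 642 times the 75th percentile in Eomes-positive and 61.4, 557 and 371 times in Eomes-negative cells. Alas2, the haem synthesis gene of red cell precursors, was at -3.44, 0.13 and 0.23 in Eomes-positive and -4.16, 0.24 and -0.45 in Eomes-negative cells. Of the 12 tested markers, 10 were lowest in sort 1 in both groups, as was Slc38a5. That placement was not particular to red cell markers. It was shared by 11 of 13 tested genes of cycling cells and by 7 of 15 tested myeloid and dendritic markers. How many of all tested genes were so placed was not counted. The part of any of these cells in the Slc38a5 values was not tested.

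Slc7a7, Slc7a8 and Slc1a3 were highest in sort 2 in both groups. Slc7a7 encodes y+LAT1, which exports arginine and lysine, and was at -1.58, -0.07 and -1.83 in Eomes-positive and -1.22, 1.15 and -3.32 in Eomes-negative cells. Slc7a8 encodes LAT2, an exchanger of neutral amino acids, and was at -5.43, -2.81 and -4.66 in Eomes-positive and -3.47, -0.92 and -4.74 in Eomes-negative cells. The Eomes-negative cells of sort 2 gave the highest value for each. Slc1a3 was at -7.41, -4.95 and -6.44 in Eomes-positive and -4.94, -2.61 and -6.40 in Eomes-negative cells, and again Eomes-negative array 2 was the highest.

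Of the 15 tested myeloid and dendritic markers, 12 were highest in sort 2 in both groups, and Itgam, Siglech and Fcgr1 were not. Slc38a5 shared that placement, as did 7 of 12 tested red cell and platelet markers, 7 of 13 cycling genes and 5 of 9 B cell markers. Among γδ T cell markers 0 of 10 did, and among αβ T cell markers 0 of 9. The share of all tested genes highest in sort 2 was not counted. Csf1r, the receptor for the macrophage growth factor, was at -0.09, 3.74 and 1.05 in Eomes-positive and 2.61, 5.14 and 0.22 in Eomes-negative cells, with Eomes-negative array 2 the highest and Eomes-positive array 1 the lowest. Between the groups the myeloid and dendritic markers did not run 1 way. Csf1r, Cd14, Adgre1, Spic and Vcam1, among others, were lower in Eomes-positive cells in sorts 1 and 2 and higher in sort 3. Lyz1, Lyz2 and S100a8 were higher in Eomes-positive cells in all 3 sorts. Linear signals summed over the myeloid and dendritic markers, of which 15 of 19 were tested and 0 called in either fit, were 84.7, 385 and 87.4 times the 75th percentile in Eomes-positive and 81.4, 390 and 85.5 times in Eomes-negative cells. Bright markers weigh most in these sums, as Siglech, at 5.26 to 6.13 over the arrays, and S100a9, at 7.14 and 6.87 in sort 2. The sums thus say little of Csf1r, Adgre1 and Vcam1, which were dimmer than Siglech on every array. The part of the myeloid and dendritic markers in the Slc7a7, Slc7a8 and Slc1a3 values was not tested. The differences between groups were -0.03, -1.25 and -1.61 in the order Slc7a7, Slc7a8 and Slc1a3, with limma adjusted p-values of 0.98, 0.86 and 0.75. Leaving out a sort or an array moved the difference of Slc7a8 between -2.10 and -0.19 and that of Slc1a3 between -2.49 and -0.59.

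**Figure D4:**
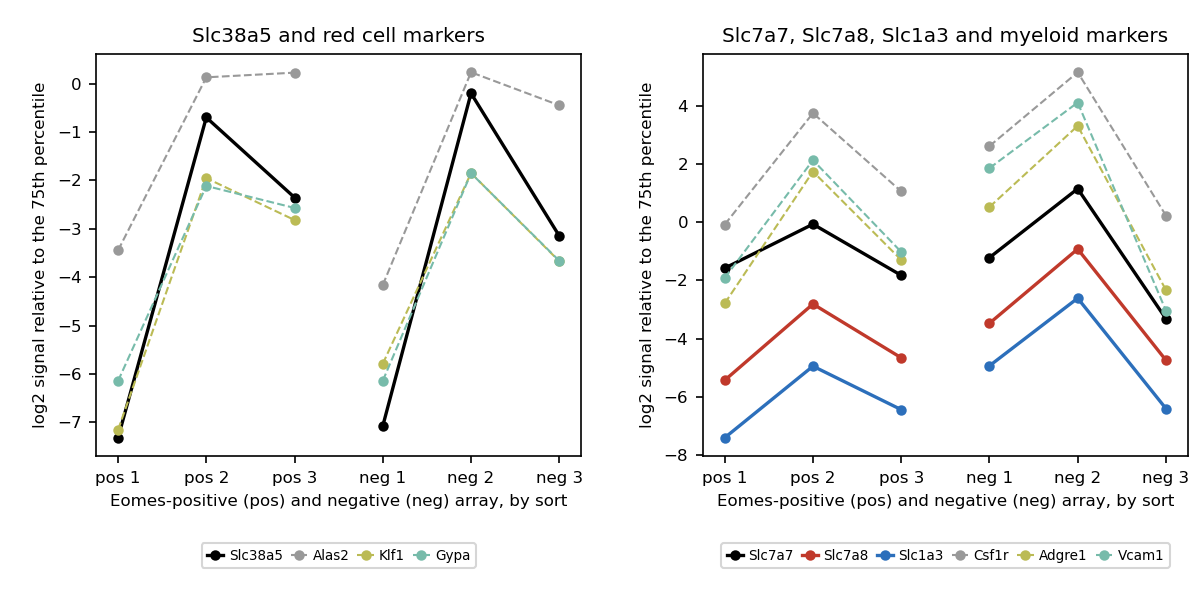
Levels, as log2 signal over each array's 75th percentile (vertical axis), are plotted by array, Eomes-positive sorts 1 to 3 and then Eomes-negative sorts 1 to 3 (horizontal axis), for Slc38a5 beside 3 red cell markers (left) and for Slc7a7, Slc7a8 and Slc1a3 beside 3 macrophage markers (right). Solid lines are transporters and dashed lines markers, and Slc38a5 runs from -7.32 to -0.20 over the 6 arrays while its 2 values of a sort differ by at most 0.79.

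The condition of 3 arrays placed Slc1a3, Slc36a4 and Slc7a8 just inside the described members and Slc6a19 and Slc6a9, with 2 arrays each, just outside. Slc6a9, the glycine carrier gene GlyT1 that red cell precursors also use, was at -6.48, -3.82 and -4.27 in Eomes-positive and -6.79, -3.77 and -5.09 in Eomes-negative cells, lowest in sort 1 like Slc38a5. Its probe passed the background mark on 1 Eomes-positive and 1 Eomes-negative array. Background itself lay lower in sort 1 than in sort 3 on this scale. Slc6a11, never well above background, was at -7.29 and -7.28 in sort 1 (Eomes-positive, then Eomes-negative) and at -6.46 and -6.43 in sort 3. Slc6a19, a neutral amino acid carrier gene of gut and kidney, was at -6.07, -6.85 and -6.33 in Eomes-positive against -3.29, -5.54 and -3.62 in Eomes-negative cells. Its probe passed the background mark on 2 Eomes-negative and 0 Eomes-positive arrays, and it was not tested. The remaining names that were left out were measured on 1 array, in 4 cases, or on none, in 27.

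Promoters of 4 members that the results turn on are printed from RefSeq (GRCm38.p6), as the 250 bases before a transcription start, because the groups were separated by a T-box factor and the amino acid response acts through an ATF element. Slc6a13 and Slc43a2 were the members called with the sort as a block, Slc43a1 was a member whose groups lay apart, and Slc38a5 varied most between sorts. Both strands were searched for the T-box half-site GGTGTGA, the C/EBP-ATF element TGATGNAA and the E-box CACGTG, and capitals mark a match.
Slc6a13, chr6:121300038-121300287, plus strand: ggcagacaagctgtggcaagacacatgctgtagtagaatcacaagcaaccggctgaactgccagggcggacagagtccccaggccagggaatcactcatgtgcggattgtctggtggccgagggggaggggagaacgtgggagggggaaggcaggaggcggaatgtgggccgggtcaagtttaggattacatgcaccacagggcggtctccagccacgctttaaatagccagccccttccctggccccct
Slc43a2, chr11:75531444-75531693, plus strand: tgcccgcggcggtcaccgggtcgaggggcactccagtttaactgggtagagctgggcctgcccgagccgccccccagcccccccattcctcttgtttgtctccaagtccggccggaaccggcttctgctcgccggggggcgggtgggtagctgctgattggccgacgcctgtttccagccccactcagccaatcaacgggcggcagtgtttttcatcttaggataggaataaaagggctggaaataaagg
Slc43a1, chr2:84840073-84840322, plus strand: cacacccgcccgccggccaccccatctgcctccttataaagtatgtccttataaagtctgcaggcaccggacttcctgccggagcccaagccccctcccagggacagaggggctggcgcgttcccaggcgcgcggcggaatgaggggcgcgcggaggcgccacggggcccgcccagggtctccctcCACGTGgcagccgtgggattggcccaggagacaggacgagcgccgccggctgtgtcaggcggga
Slc38a5, chrX:8271131-8271380, plus strand: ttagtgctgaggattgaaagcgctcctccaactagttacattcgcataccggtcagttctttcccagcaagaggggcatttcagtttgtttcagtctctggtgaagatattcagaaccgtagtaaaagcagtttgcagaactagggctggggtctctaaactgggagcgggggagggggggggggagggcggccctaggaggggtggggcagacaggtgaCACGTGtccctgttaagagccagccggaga

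The printed windows of Slc43a1 and Slc38a5 each hold 1 E-box, and none of the 3 motifs is in the printed windows of Slc6a13 and Slc43a2. Slc6a13 has 3 listed starts and Slc43a2 has 2, and their other windows hold none of the motifs either. Over the 30 promoters that the table lists for 21 described members, 0 hold the T-box half-site, against 3.33% of all 32851 promoters. The C/EBP-ATF element is in 2, both of Slc7a7, against 3.45% of all, and the E-box is in 5, of Slc36a1, Slc38a5, Slc38a7, Slc43a1 and Slc6a16, against 6.02% of all. A match is a run of letters and not a measured binding site.

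The genes around the transporters were followed through lists of the amino acid response, amino acid metabolism, amino acid sensing, carriers of other families and regulators of transporter genes. Of 120 tested genes, each counted once, 1 was called higher and 3 lower in Eomes-positive cells, beside 1.2% and 1.57% of all tested genes. The block for sorts gave 2 higher and 13 lower, beside 3.66% and 4.33% of all. Of 25 tested genes of the amino acid response, which the factor ATF4 drives when amino acids run short, 0 were called higher and 1 lower, and 3 were lower with the sort as a block. Trib3, a pseudokinase of that response, fell to -3.82, -3.60 and -4.34 in Eomes-positive cells, against -1.76, -1.74 and -1.88 in Eomes-negative cells. Its probe was well above background on 2 Eomes-positive and 3 Eomes-negative arrays, and the groups were far apart, a difference of -2.13 (SE 0.22, limma adjusted p = 0.010). Ddit4, which restrains mTORC1, differed by -1.08 (limma adjusted p = 0.079, and 0.014 with the block), and Eif4ebp1, a repressor of translation that mTORC1 phosphorylates, by -0.66 (0.61, and 0.036 with the block). The list had a median difference of -0.15, and Atf4 itself was at 3.80, 3.59 and 3.98 in Eomes-positive and 4.05, 3.72 and 4.08 in Eomes-negative cells, a difference of -0.16 (SE 0.18, limma adjusted p = 0.92).

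Of 38 tested genes of amino acid metabolism 0 were higher and 1 lower, beside 1.2% and 1.57% of all tested genes. With the block 3 were lower, beside 4.33% of all. Ggt1, the γ-glutamyl transferase that breaks down extracellular glutathione, fell to -3.57, -4.29 and -3.02 in Eomes-positive cells, against -0.80, -0.92 and -0.16 in Eomes-negative cells. The arrays of the groups did not overlap, and the difference was -3.00 (SE 0.38, limma adjusted p = 0.019). Ass1, an enzyme that serves to remake arginine from citrulline, differed by -1.67 and was called with the block alone (limma adjusted p = 0.012, against 0.22 without it). Arg1, which splits arginine, was called with the block as well (adjusted p = 0.034, against 0.12), but only 1 Eomes-positive array was well above background for it, against 3 Eomes-negative arrays, so its difference of -2.03 rests on signals mostly at background on the Eomes-positive side. The list had a median of -0.07.

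Of 37 tested genes of amino acid sensing and mTORC1, 0 were called in either direction without the block. Beside 3.66% and 4.33% of all tested genes, 0 were higher and 2 lower with the block. These were Castor1, the cytosolic arginine sensor, with a difference of -1.42 (limma adjusted p = 0.066, and 0.021 with the block), and Sesn1, of a family of leucine sensors, with -0.71 (0.11, and 0.034 with the block). The median of the list was 0.00. Rps6, a ribosomal protein gene, and Lamtor2, of the lysosomal anchor of mTORC1, differed by 0.15 and 0.33 and did not pass in that comparison (limma adjusted p = 0.97 and 0.47).

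Among 15 tested carriers of other families, 0 were called without the block. With the block 1 was higher and 1 lower, beside 3.66% and 4.33% of all tested genes. Most of that list carry amino acids, but it also held Slc33a1 and Slc29a3, which are not amino acid carriers. With it, the mitochondrial aspartate and glutamate carrier gene Slc25a13 was higher, with a difference of 0.58 (limma adjusted p = 0.038), and the aromatic amino acid carrier gene Slc16a10 lower, with a difference of -1.21 (0.031). Of 15 tested regulators of transporter genes, 1 was called higher and 1 lower, beside 1.2% and 1.57% of all tested genes. The block gave 1 higher and 4 lower, beside 3.66% and 4.33% of all. Il2rb, the β chain shared by the receptors of IL-2 and IL-15, was at 6.24, 5.81 and 6.13 in Eomes-positive against 4.71, 4.61 and 4.60 in Eomes-negative cells. Every Eomes-positive array lay above every Eomes-negative one, a difference of 1.42 (SE 0.16, limma adjusted p = 0.014). Il2ra, the α chain of the IL-2 receptor, was at -0.86, -1.14 and -0.39 in Eomes-positive against 0.45, 0.95 and 1.07 in Eomes-negative cells. Those groups were apart in the other direction, with a difference of -1.62 (SE 0.27, limma adjusted p = 0.043). The transcription factor genes Irf4 and Atf5 had differences of -1.53 and -0.82 and were called lower with the block alone (limma adjusted p = 0.047 and 0.023). Mycn was called with the block too (adjusted p = 0.018), but its probe was well above background on 1 Eomes-positive array and on all 3 Eomes-negative ones, so its difference of -3.50 sets a signal mostly at background against a measured one.

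**Figure D5:**
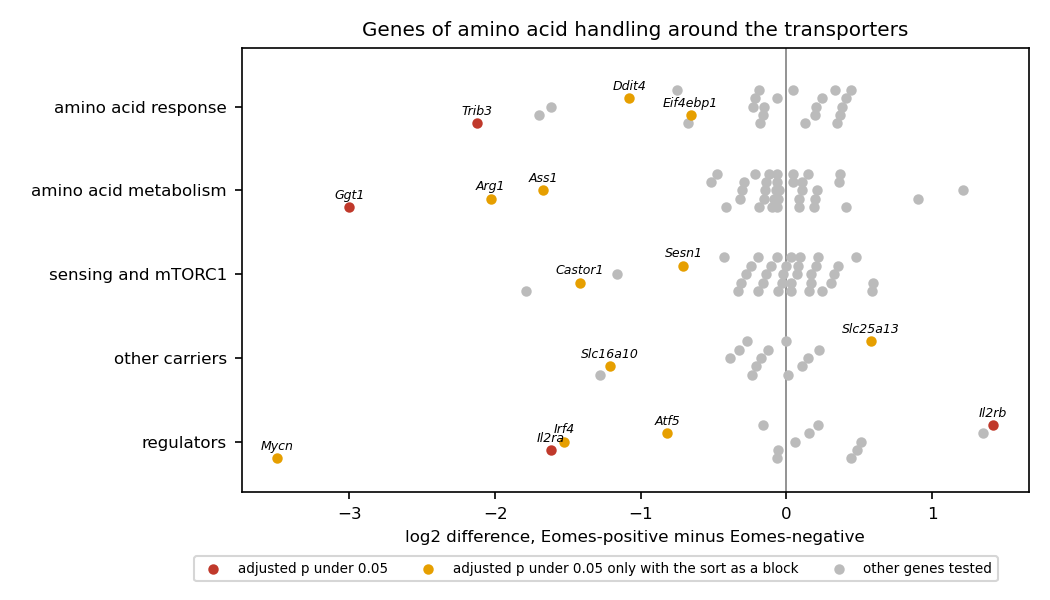
Each point is a tested gene of 1 of 5 lists around the transporters (rows), placed at its log2 difference, Eomes-positive minus Eomes-negative (horizontal axis), in red where the comparison without pairing called it, in orange where the call was made with the sort as a block alone, and in grey otherwise. Trib3 (-2.13) and Ggt1 (-3.00) stand to the left and Il2rb (1.42) to the right, and the list medians lie between -0.17 and 0.06.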

How the data were processed

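Total RNA of 6 sorted cell samples was amplified in 1 round, labelled and hybridized to one-colour Agilent mouse arrays, per the labels' protocols. The deposited scanner files hold an intensity per spot on a linear scale, from Agilent Feature Extraction 10.7.3.1. Per the file headers, that software had subtracted background and detrended the signals spatially and multiplicatively. The authors' deposited value table holds the same intensities scaled per array, with 75th percentiles of 1497 to 1506 and a log2 offset from the scanner values whose interquartile range within an array was at most 0.0034; it served as an alternative. Probe positions are in the mm9 build.

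Here, the 4 spots of each of 39429 probes were averaged as log2 signal without outlier spots, then reduced by the array's 75th percentile. A probe was taken as well above background where at least 50% of its spots were flagged so. Gene names followed the RefSeq accession for 27508 probes and the scanner name for 11921; members were picked by the scanner name. The comparison of groups used a limma model on group alone (limma 3.58.1, R 4.3.3, the data.table package in version 1.17.8, statmod 1.5.0), with moderated variances and Benjamini-Hochberg adjustment over 16413 genes. The replicate numbers mark shared sorts in the design text, and deviations of same-numbered arrays from their group means correlated at 0.812, 0.818 and 0.808. The sort as a block is therefore printed where it changed a call, and for some other members. Where the block is not named, SEs and intervals are from the fit without pairing and take in the spread between sorts. Replicates are pools from separate sorts. Without pairing, p-values measure the spread between arrays of a group, and with the block the spread of the differences within sorts. In simulated data of 16413 genes with 200 changed, the fit recovered 62.5% of changes of log2 size 2 and 94.2% of size 4, with 9 false calls. The simulated noise was independent between arrays and between genes and held no sort effect. The real arrays of a sort deviated together, so these rates need not hold for them.

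Array values were printed for members called in either fit, for a set of carriers with known roles in T cells, and for up to 8 further members with 1 direction in all 3 sorts and the largest difference, Slc7a7, Slc7a8, Slc38a5 and the names next to the threshold being added after their values were seen; from other lists up to 4 called genes, or the 2 brightest where none was called, and Atf4 and the red cell and macrophage markers named or drawn were added after their values were seen. The values of 1 described member are not reported here, though it is counted. Members and lists were chosen with earlier results of these data known. Alternatives were other scalings, background corrections, filters, probe rules, blocks and omissions. Sequences were read with Python 3.11.15 and pandas 2.3.3, and figures drawn with matplotlib 3.10.9.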

Additional observations from a re-analysis of the deposited data

How the results depend on the processing

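The number of arrays limits every value, and dim members such as Slc1a3, Slc36a4, Slc7a8, Slc6a8 and Slc36a3 were not above background on all of them. Members called lower, 0 in the comparison given, were 2 with the sort as a fixed replicate block, 4 with it as a random replicate block (Slc6a13, Slc43a2, Slc36a3 and Slc7a4), 1 with slide as a block (Slc36a3) and 1 with median scaling (Slc6a13, adjusted p = 0.029), and 0 to 1 when a sort or array was left out, the 1 being Slc6a13 without Eomes-negative array 1 (0.047); members called higher stayed at 0. The limma adjusted p of Slc6a13 ranged from 0.0011 to 0.33 and its difference from -3.09 to -2.22, and the difference of Slc43a2 from -0.97 to -0.56. Over all genes, 197 higher and 257 lower became 600 and 710 with the fixed block (of which 197 and 254 were also called without it), 1063 and 1131 with the random block, 92 and 154 without a filter, and 0 to 101 higher and 0 to 180 lower on leaving out a sort or array; with all 6 arrays above background 166 were lower. Genes called over the pathway lists, 4 in all, were 15 with the fixed block, 27 with the random block, 7 with slide as a block, 2 without a filter and 0 to 4 on leaving out a sort or array. Members near 0 changed sign. Median scaling, which moved the median of all genes by 0.098, gave Slc38a2 0.035, Slc3a2 0.078, Slc43a3 0.052 and Slc7a7 0.069; quantile normalization gave Slc36a4 0.10 and Slc3a2 0.026; normexp gave Slc38a5 -0.14; the mean of all probes gave Slc38a6 -0.11; slide as a block gave Slc36a4 0.11, Slc38a10 -0.031, Slc38a2 0.029, Slc38a5 -1.76 and Slc6a20a -0.25. Leaving out a sort or array gave -0.30 to 0.030 for Slc1a5, -0.74 to 0.24 for Slc36a4, -0.043 to 0.52 for Slc38a1, -0.12 to 0.18 for Slc38a10, -0.28 to 0.14 for Slc38a2, -1.78 to 1.95 for Slc38a5, -0.22 to 0.33 for Slc38a7, -0.20 to 0.28 for Slc38a9, -0.12 to 0.11 for Slc3a2, -0.51 to 0.49 for Slc43a3, -0.31 to 0.86 for Slc6a20a, -0.39 to 0.22 for Slc6a6 and -1.12 to 1.11 for Slc7a7. The cause of these changes was not tested.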
